A study of Mus musculus with 13 samples.

Results

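The keratins that mark basal progenitor cells and luminal duct cells, together with the basal transcription factor gene Trp63, were followed through development of the mouse submandibular gland, one of the major salivary glands. The members were the rows with the symbols Krt5, Krt14, Krt15, Krt17 and Trp63 for the basal side and Krt7, Krt8, Krt18 and Krt19 for the luminal side. All 9 of the 9 named genes were among the 23364 genes listed for each of the 13 samples, and all 9 were among the 14650 that reached an FPKM (fragments mapped to a transcript, scaled to its length and to the library size) of 1 in at least 1 sample and were tested.

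Whole-gland RNA was sequenced from C57BL/6 mice at 6 ages. There were 3 samples from E14.5 (E for days of embryonic development), and each of the other ages, E16.5, E18.5, postnatal day 5 (P5), 4 weeks (4wk) and 12 weeks (12wk), had 2. An embryonic sample pooled the glands of 3 animals at E14.5 and of 2 animals at E16.5 and E18.5. The 4wk and 12wk animals were male, and sex was not ascertained for the embryos and the P5 mice. Adult age and male sex therefore cannot be told apart. The labels name no transgene or treatment.

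Keratins are the intermediate filament proteins of epithelial cells, and each filament is built from pairs of a type I and a type II chain. Krt5 and Krt14 form the pair typical of basal cells in stratified and glandular epithelia, whereas Krt8 and Krt18 form the pair of simple, luminal epithelia, joined by Krt7 and Krt19 in ducts. Trp63 encodes p63, a relative of p53 that is required for basal cells in many epithelia, and Krt5 and Krt14 are among its known targets. In salivary glands the Krt5 and Krt14 proteins are found in basal duct cells and in myoepithelial cells, the contractile cells around acini and ducts.

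On the mm9 assembly the type II genes lay on chromosome 15, with Krt7 at 101241474-101260744 on the plus strand, Krt5 at 101537501-101543322 and Krt8 at 101827142-101834773, both on the minus strand. Krt18, the only type I gene in that cluster, lay at 101858647-101862457 on the plus strand, 23873 bp from Krt8. The other type I genes were on the minus strand of chromosome 11, with Krt15 at 99993072-99997263, Krt19 at 100002124-100009979, Krt14 at 100064476-100068862 and Krt17 at 100117531-100122343. Krt15 and Krt19 were thus neighbours with a gap of 4860 bp, although one is a basal and the other a luminal keratin. Trp63 lay at 25683849-25892188 on the plus strand of chromosome 16.

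The promoters of the luminal keratins Krt7, Krt8 and Krt18 and of the basal keratin Krt5 are shown because these genes share 1 cluster. They are the 250 bases before the start site in RefSeq on the GRCm38.p6 assembly, a newer build than mm9, at chr15:101412153-101412402 (plus strand) for Krt7, chr15:102004343-102004592 (minus strand) for Krt8, chr15:102027966-102028215 (plus strand) for Krt18 and chr15:101712906-101713155 (minus strand) for Krt5. Capitals mark matches, on either strand, to ATAAA (part of the TATA-box consensus), GGGCGG (an Sp1-type GC box), GCCNNNGGC (an AP-2-type motif) or the p53-family half-site.
Krt7: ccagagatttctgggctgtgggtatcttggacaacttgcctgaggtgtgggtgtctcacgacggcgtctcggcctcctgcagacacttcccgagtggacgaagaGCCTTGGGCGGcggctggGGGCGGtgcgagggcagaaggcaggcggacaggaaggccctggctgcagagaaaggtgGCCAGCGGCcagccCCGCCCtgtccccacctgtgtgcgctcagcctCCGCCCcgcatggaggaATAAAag
Krt8: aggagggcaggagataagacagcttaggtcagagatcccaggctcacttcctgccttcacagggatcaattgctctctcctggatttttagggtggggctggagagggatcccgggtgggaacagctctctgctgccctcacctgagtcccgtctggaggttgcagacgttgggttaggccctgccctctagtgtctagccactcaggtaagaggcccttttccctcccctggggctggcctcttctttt
Krt18: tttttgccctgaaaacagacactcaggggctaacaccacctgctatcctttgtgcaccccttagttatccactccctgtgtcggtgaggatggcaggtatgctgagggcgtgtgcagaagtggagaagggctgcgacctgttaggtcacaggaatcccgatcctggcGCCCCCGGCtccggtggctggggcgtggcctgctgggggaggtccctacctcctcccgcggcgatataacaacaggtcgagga
Krt5: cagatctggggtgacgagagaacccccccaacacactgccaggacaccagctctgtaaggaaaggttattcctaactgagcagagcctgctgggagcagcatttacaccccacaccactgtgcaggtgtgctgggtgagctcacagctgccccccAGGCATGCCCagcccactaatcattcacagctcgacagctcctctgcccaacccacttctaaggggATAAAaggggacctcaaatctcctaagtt
Of 32851 windows of this length, 37.3% held ATAAA, 32.7% held GGGCGG, 13.7% held GCCNNNGGC and 7.1% held the p53-family half-site. The Krt5 window held 1 half-site, 86 bases before the start site, and 1 ATAAA, 25 bases before it. The Krt7 window held 4 GGGCGG, 2 GCCNNNGGC, of which 1 overlapped a GGGCGG, and 1 ATAAA, 3 bases before the start site. The Krt18 window held 1 GCCNNNGGC, and the Krt8 window held none of the 4. A match describes the letters only. RefSeq windows were matched for 5 of the 9 genes, and that of Krt14 started 1480 bp from the gene's 5′ end and is not shown.

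Depth, computed from the steps between low FPKM values, was between 5817293 reads on genes in a 4wk sample and 48314162 in a P5 sample. The 10 most abundant genes held 29.2% and 31.1% of the FPKM at P5, 48.1% to 61.1% in adult samples and less than at P5 in every embryonic sample, so the same FPKM stands for a different share of the remaining RNA in embryo and adult. FPKM were therefore also rescaled by median-of-ratios factors, which were 1.148 to 1.38 in the embryo and 0.617 to 0.714 in the adult. Epithelial genes marked every sample as epithelium-bearing, with a geometric mean over 10 of them (Epcam, Cdh1 and others) of 18.1 to 67.3 FPKM. The first E14.5 sample stood apart. That mean was 18.1 FPKM in it against 34.5 and 34.0 in the other E14.5 samples, its correlation with them over genes was 0.97 and 0.974 against 0.996 between those, and its muscle actin gene Actc1 was at 224 FPKM against 56.4 and 46.9. Skeletal muscle genes, summed over 6 markers, were at 116 to 396 FPKM at E14.5, 386 to 933 at E16.5 and no more than 17.4 later, and mesenchymal genes, summed over 10, went from 2210 to 3349.7 FPKM in the embryo to 291 to 581 in the adult. In whole glands, fewer cells of a type and less RNA per cell cannot be told apart. Calls and list counts from E14.5 to E16.5, the folds over E14.5 and the keratin sums are also given without that sample.

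Krt8 and Krt18 carried most of the keratin RNA at every time point. In order of replicate, Krt8 was at 86.9, 142 and 142 FPKM (E14.5), 354 and 453 (E16.5), 350 and 370 (E18.5), 311 and 377 (P5), 184 and 183 (4wk), and 174 and 158 (12wk). Krt18 was at 66.5, 140 and 127 FPKM (E14.5), 398 and 467 (E16.5), 514 and 608 (E18.5), 547 and 673 (P5), 297 and 326 (4wk), and 273 and 238 (12wk). Both genes were lowest at E14.5, where the 3 samples did not overlap any later sample, and both were lower in the 4 adult samples than at E16.5, E18.5 and P5. The highest time point mean was 3.26-fold the lowest for Krt8 and 5.49-fold for Krt18 (2.84-fold and 4.57-fold without the first E14.5 sample). Their order exchanged along the way. The ratio of Krt18 to Krt8 FPKM within a sample was 0.765, 0.987 and 0.893 (E14.5), 1.12 and 1.03 (E16.5), and between 1.47 and 1.79 in all 8 later samples. A ratio within a sample does not depend on how that sample was scaled. Krt8 and Krt18 have processed copies in the genome, and reads that mapped to several places had been left out, so the level of either could be underestimated.

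Krt7 and Krt19 were both higher at E16.5 than at E14.5 but then parted. Krt7, a type II keratin of ducts, was at 10.6, 38.2 and 29.1 FPKM (E14.5), 121 and 153 (E16.5), 135 and 151 (E18.5), 238 and 276 (P5), 115 and 141 (4wk), and 108 and 88.4 (12wk). It was highest at P5, 9.91-fold the E14.5 mean (7.65-fold without the first E14.5 sample), with no overlap between P5 and any other time point. Krt19, the smallest type I keratin and one without a tail domain, was at 11.7, 26.8 and 25.7 FPKM (E14.5), 61.8 and 85.7 (E16.5), 41.3 and 35.8 (E18.5), 18.7 and 24.3 (P5), 1.502 and 7.14 (4wk), and 9.41 and 9.17 (12wk). Krt19 peaked at E16.5, 17.1-fold over its 4wk mean (10.3-fold without the first 4wk sample), and P5 overlapped E14.5. The 2 4wk samples differed beyond counting error, with 12 reads in the first (95% Poisson interval 0.776 to 2.62 FPKM) and 78 in the second (5.64 to 8.91 FPKM). Relative to Krt18, Krt19 stood at 0.190 ± 0.013 (SD, n = 3) at E14.5 and 0.0365 ± 0.00286 (SD, n = 2) at 12wk.

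**Figure D1:**
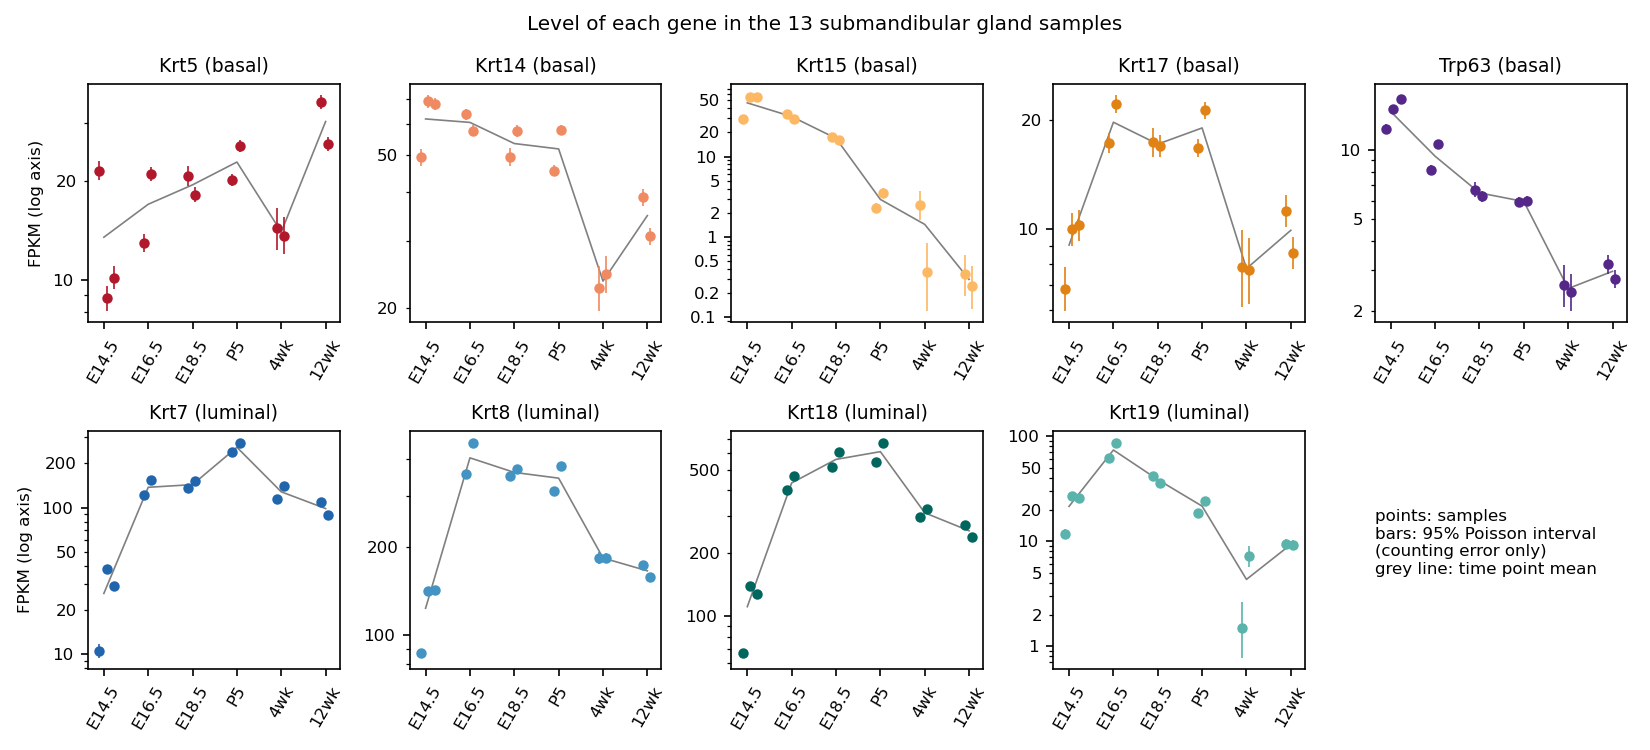
FPKM of the 9 genes on log axes against time point, 1 panel per gene with its own range. Points are the 13 samples, bars are 95% Poisson intervals that cover counting error only, and the grey line joins time point means. Krt7, Krt8 and Krt18 are lowest at E14.5, where Trp63 and Krt15 are highest. Krt19 is highest at E16.5, and Krt5 is highest at 12wk.

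Trp63 was highest at E14.5, where Krt7, Krt8 and Krt18 were lowest, and lowest in the adult. It was at 12.3, 15.01 and 16.6 FPKM (E14.5), 8.19 and 10.54 (E16.5), 6.70 and 6.28 (E18.5), 5.93 and 5.98 (P5), 2.58 and 2.41 (4wk), and 3.19 and 2.74 (12wk). Each pair of neighbours in the order of levels was separated without overlap, from E14.5 down to P5 and then 12wk and 4wk, and the highest mean was 5.86-fold the lowest (6.33-fold without the first E14.5 sample). The gaps from E18.5 to P5 and from 12wk to 4wk were within counting error. The 95% Poisson intervals were 5.94 to 6.64 FPKM in the second E18.5 sample and 5.68 to 6.29 FPKM in the second P5 sample. They were 2.50 to 3.00 FPKM in the second 12wk sample and 2.08 to 3.17 FPKM in the first 4wk sample. A gene-level FPKM does not separate the long and the N-terminally truncated forms of p63. Krt15, a type I keratin of basal progenitor cells, showed the steepest course, at 29.3, 54.7 and 55.6 FPKM (E14.5), 33.5 and 29.4 (E16.5), 17.7 and 15.9 (E18.5), 2.31 and 3.54 (P5), 2.50 and 0.365 (4wk), and 0.346 and 0.245 (12wk). The mean at E14.5 was 157-fold that at 12wk, and 186-fold without the first E14.5 sample. The adult Krt15 values rest on few reads, 25 and 5 at 4wk and 13 and 12 at 12wk, and the first 4wk sample (95% Poisson interval 1.62 to 3.69 FPKM) lay above the other adult samples beyond counting error.

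Krt5 and Krt14 did not keep a fixed ratio, although they form 1 filament pair. Krt14 was at 49.4, 68.9 and 67.8 FPKM (E14.5), 63.8 and 57.7 (E16.5), 49.4 and 57.7 (E18.5), 45.5 and 58.2 (P5), 22.6 and 24.5 (4wk), and 38.8 and 30.8 (12wk). It was between 45.5 and 68.9 FPKM up to P5 and lower in all 4 adult samples. Krt5 was at 21.5, 8.81 and 10.2 FPKM (E14.5), 12.997 and 21.0 (E16.5), 20.8 and 18.2 (E18.5), 20.1 and 25.6 (P5), 14.4 and 13.7 (4wk), and 34.8 and 26.0 (12wk). In the order of its levels every time point overlapped the next except 12wk, which lay above all others. That gap was within counting error. The 95% Poisson intervals were 24.7 to 27.3 FPKM in the second 12wk sample and 24.6 to 26.7 FPKM in the second P5 sample. The first E14.5 sample held more Krt5 than the other E14.5 samples while holding less of the other 8 genes. Without it the E14.5 samples lay below all others for Krt5. The ratio of Krt14 to Krt5 went from 2.29, 7.82 and 6.66 (E14.5) through 4.91 and 2.75 (E16.5), 2.38 and 3.17 (E18.5), 2.26 and 2.27 (P5) and 1.57 and 1.80 (4wk) to 1.12 and 1.19 (12wk). Krt17, a type I keratin of basal and stress-responsive epithelium, was at 6.86, 9.997 and 10.3 FPKM (E14.5), 17.3 and 22.1 (E16.5), 17.4 and 17.0 (E18.5), 16.7 and 21.3 (P5), 7.85 and 7.73 (4wk), and 11.3 and 8.61 (12wk). Its highest levels were at E16.5, E18.5 and P5, as for Krt8.

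Summed over genes, the 4 basal keratins made up 32.6% ± 4.6 (SD, n = 3) of the FPKM of all 8 keratins at E14.5, with 37.9% in the first sample and 29.1% and 30.7% in the others. The share was 12.0% and 10.1% (E16.5), 9.19% and 8.55% (E18.5), 7.06% and 7.44% (P5), 7.34% and 6.57% (4wk), and 13.1% and 11.7% (12wk). Keratin RNA therefore had its highest basal share at E14.5 and its lowest at P5 and 4wk, and the 12wk share overlapped that of E16.5. On the log2 scale the ratio of summed basal to luminal keratins was -1.06 ± 0.3 (SD, n = 3) (E14.5) (-1.23 without the first sample), -3.01 ± 0.2 (E16.5), -3.36 ± 0.08 (E18.5), then -3.68 ± 0.06 (P5), -3.74 ± 0.12 (4wk) and -2.82 ± 0.13 (12wk) (SD, n = 2 each). The drop from E14.5 came with a luminal sum that went from 282 ± 92.9 to 1047 ± 157 FPKM at E16.5, while the basal sum was 131 ± 20.8 and 129 ± 1.89 FPKM. Without the first E14.5 sample the E14.5 sums were 335.5 ± 15.7 FPKM for luminal and 143 ± 1.07 FPKM for basal keratins. From 4wk to 12wk the basal sum went from 46.8 ± 0.711 to 75.4 ± 13.9 FPKM and the luminal sum from 628 ± 42.9 to 529.5 ± 49.9 FPKM. From 4wk to 12wk the log2 ratio of Krt5 + Krt14 to Krt8 + Krt18 also rose, from -3.72 ± 0.03 to -2.7 ± 0.14. The size of the rise depended on the measure, since the difference of mean log2 values went from -3.05 ± 0.61 to -2.86 ± 0.1. On that last measure the ages overlapped, with -2.62 and -3.48 in the first and second 4wk samples and -2.8 and -2.93 at 12wk. These ratios are descriptions and were not tested. Over these 8 keratins, summed type I over summed type II chains gave 1.51 ± 0.12 at E14.5 (1.58 without the first sample) and between 1.05 and 1.08 in the 4 adult samples. With Krt23, a type I keratin that is no member, added, the mean ratio was 1.69 at E14.5, 1.265 at P5, 1.36 at 4wk and 1.19 at 12wk.

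**Figure D2:**
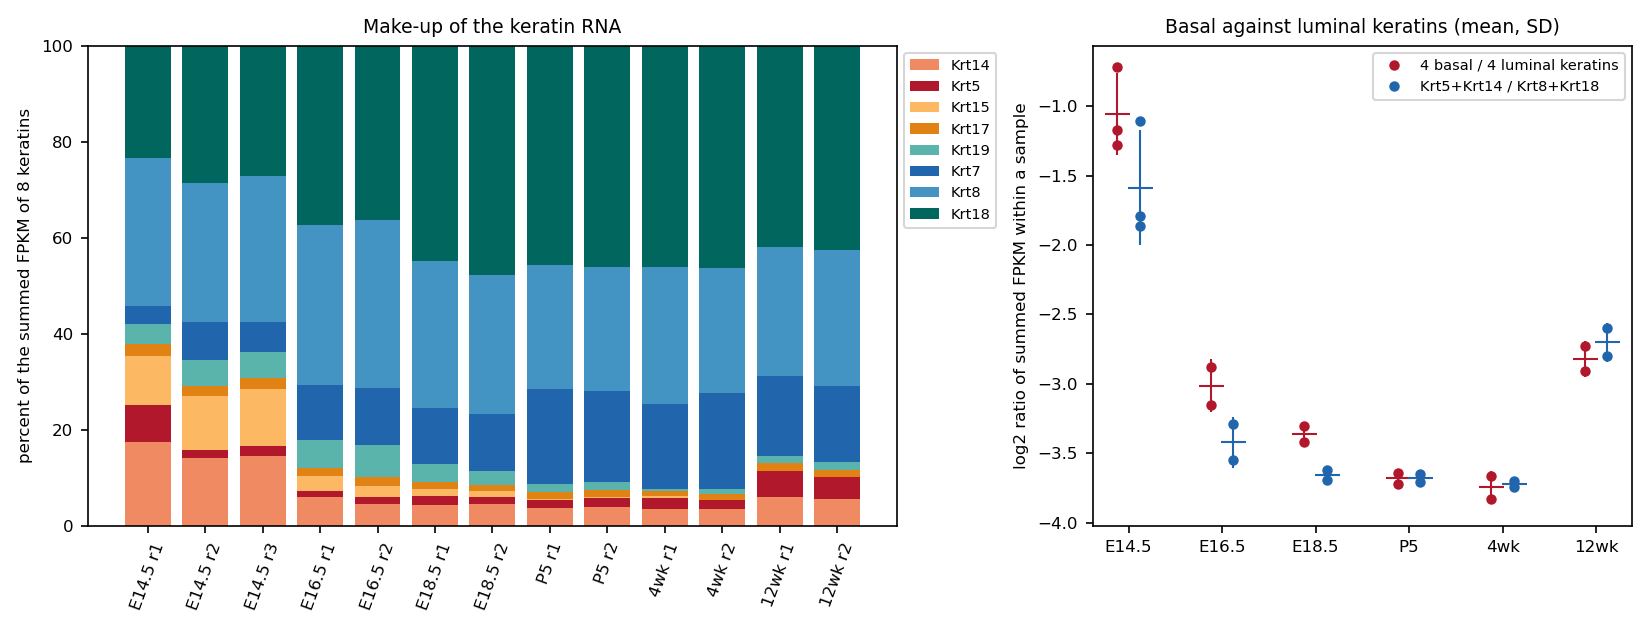
Left, percent of the summed FPKM of 8 keratins held by each keratin in the 13 samples (r is the replicate); right, log2 ratio of summed basal to summed luminal keratin FPKM for 4 genes a side and for Krt5 + Krt14 against Krt8 + Krt18 (points are samples, ticks means, bars SD). The basal share is 32.6% at E14.5, 6.95% at 4wk and 12.4% at 12wk on average.

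The first comparison between neighbouring ages, E14.5 to E16.5, spans the onset of cytodifferentiation. All 4 luminal keratins and 1 of the 5 basal genes, Krt17, rose, and none fell. Over all 14650 tested genes 5.15% were called, 4.17% as higher and 0.983% as lower, where a called gene had to differ by 1 or more on the log2 scale with a Benjamini-Hochberg adjusted p under 0.1 from limma on log2(FPKM + 1). The log2 fold change was 2.52 (SE 0.39, limma adjusted p = 0.0016) for Krt7, 2.02 (SE 0.27, adjusted p = 0.00062) for Krt18, 1.80 (SE 0.44, adjusted p = 0.017) for Krt19 and 1.72 (SE 0.21, adjusted p = 0.00035) for Krt8. Krt17 was just past the fold threshold with 1.05 (SE 0.19, adjusted p = 0.0038). Trp63, at -0.59 (SE 0.15, adjusted p = 0.023), lay inside the fold threshold, and Krt15 (-0.50), Krt14 (-0.02) and Krt5 (0.38) were not called. Without the first E14.5 sample the luminal changes were 2.00 for Krt7, 1.69 for Krt18, 1.49 for Krt8 and 1.44 for Krt19, all still called, and Krt17 lost its call at 0.89, as it did without the second E16.5 sample (0.88). Krt5, at 0.75 without the first E14.5 sample, was not called either way.

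Other epithelial genes moved in the same step. Of 10 general epithelial genes, 5 rose and none fell, among them Spint2 (log2 fold change 1.58) and Cldn7 (1.57), a protease inhibitor and a tight junction claudin. Without the first E14.5 sample 3 of the 10 rose, with Spint2 at 1.33 and Cldn7 at 1.21. Of 12 genes of luminal and duct epithelium, 8 rose and none fell, led by Aqp5 (4.52), the water channel of acinar cells, Cldn3 (2.70), Prom1 (1.54) and the iodide transporter gene Slc5a5 (1.47). Without that sample 5 of the 12 rose, with Aqp5 at 3.71. Of 18 tested p63 target and basal adhesion genes, 3 rose and none fell, namely the laminin chain gene Lamb3 (1.43), the hemidesmosome collagen gene Col17a1 (1.19) and Sfn (1.03), and the median over the 18 was 0.03 against 0 over all tested genes. Without that sample 2 of the 18 rose, and Lamb3 (0.97) lost its call. When each sample was divided by the geometric mean of the 10 general epithelial genes, Krt7 alone stayed called as higher, the changes of Krt8 (0.68), Krt18 (0.97), Krt19 (0.79) and Krt17 (0.08) fell short of the threshold, and Trp63 (-1.56, limma adjusted p = 0.0017), Krt15 (-1.52, adjusted p = 0.0042) and Krt14 (-1.05, adjusted p = 0.0066) were called as lower. That division moved the median of all tested genes to -0.88, and 9 of the 18 p63 target and basal adhesion genes were then lower and none higher. Over all tested genes the calls were then 39.5% lower and 0.942% higher. Without the first E14.5 sample this division left Trp63 (-1.39) and Krt15 (-1.52) called as lower and Krt7 (1.27) as higher, ended the call of Krt14 (-0.90), and called 6 of the 18 as lower. Per unit of these epithelial genes, Trp63 was at 0.680, 0.436 and 0.488 in the E14.5 samples and 0.168 and 0.157 at E16.5, without overlap.

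From E16.5 to E18.5 the limma fit called 0 of the members and 2.94% of all tested genes. Before adjustment 1 member, Trp63 (-0.46), was under 0.05 (limma adjusted p = 0.11). Krt19 (-0.90, SE 0.48) and Krt15 (-0.86, SE 0.39) had the largest differences, and the median of all genes was -0.14. The differences of Krt18 (0.37), Krt5 (0.22), Krt7 (0.07), Krt8 (-0.15), Krt14 (-0.18) and Krt17 (-0.18) were smaller. From E18.5 to P5, the step across birth, Krt15 alone fell, by 2.2 on the log2 scale (SE 0.39, limma adjusted p = 0.0042), and 2.97% of all tested genes were called as lower and 2.07% as higher. Relative to the median of all genes, -0.12, its change was -2.08. Krt7 had the largest positive difference, 0.84, with an adjusted p of 0.2 in the limma fit. Krt19 was at -0.82, and Krt5 (0.21), Krt17 (0.13), Krt18 (0.12), Krt14 (-0.05), Krt8 (-0.07) and Trp63 (-0.11) differed less. Epidermal markers were highest at E18.5, where 7 cornified envelope genes summed to 21.0 and 21.7 FPKM against 4.39 and 4.62 at P5 and less than 1 in every adult sample, with Lce3c listed at 0 in every sample. The suprabasal keratin gene Krt10 was at 14.0 FPKM at E18.5 and 3.10 at P5. Of 7 tested suprabasal and oral keratin genes, 2 rose and none fell from E16.5 to E18.5, and their median log2 fold change was -0.34. From E18.5 to P5, 2 of the 7 fell and none rose. Krt4, of the same list, had means of 5.02 FPKM at E16.5 and 2.82 at E18.5. Whether cells of skin or mouth lining contributed to the basal keratins at E18.5 was not tested.

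From P5 to 4wk, 4 of the 9 genes fell, namely Krt19 (-2.31, limma adjusted p = 0.002), Krt17 (-1.18, adjusted p = 0.00066), Krt14 (-1.10, adjusted p = 0.00062) and Krt7 (-1.01, adjusted p = 0.06). Trp63 (-0.99), Krt18 (-0.96) and Krt8 (-0.89) lay just inside the fold threshold, and Krt15 (-0.83) and Krt5 (-0.66) were not called. On log2(FPKM + 0.1), Trp63 (-1.22, limma adjusted p = 0.00038) and Krt15 (-1.43, adjusted p = 0.065) were also called as lower. The Krt7 call ended when any 1 of the 4 samples compared was left out (adjusted p between 0.1 and 0.2 in the limma fits), and the Krt14 call ended without the second P5 sample (-0.92). Without the first 4wk sample Krt19 was at -1.46 and still called, and Krt15 (-1.51) and Trp63 (-1.03) were called as lower. Without the first P5 sample Krt8 (-1.03) and Krt18 (-1.11) were called as lower, as was Krt18 (-1.03) without the second 4wk sample. In this step 22.1% of all tested genes were called as lower and 2.19% as higher, and the median of all genes was -0.53. Over the same step, 9 acinar secretory genes went from a sum of 105210 and 118540 FPKM to 179900 and 184970 FPKM, and their part in the lower values was not tested. Relative to that median the change was -1.78 for Krt19, -0.65 for Krt17, -0.57 for Krt14, -0.48 for Krt7 and -0.46 for Trp63. With median-of-ratios scaling Krt19 alone remained called (-1.76, limma adjusted p = 0.024), and 8.78% of all tested genes were called as lower.

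From 4wk to 12wk, both adult male time points, Krt5 rose by 1.05 on the log2 scale (SE 0.34, limma adjusted p = 0.072), from 14.4 and 13.7 to 34.8 and 26.0 FPKM, and 2.68% of all tested genes were called as higher. Krt14 (0.54, adjusted p = 0.091 in the limma fit) and Krt19 (1.19, adjusted p = 0.14) were not called, and Trp63 differed by 0.18. Krt17 was at 0.30, Krt8 at -0.15, Krt18 at -0.29, Krt7 at -0.38 and Krt15 at -0.76. Without the second 4wk sample Krt19 (2.04) was called as higher and Krt15 (-1.43) as lower, and without the first Krt19 was at 0.34. The Krt5 call was made on depths that differ, 183 and 238 reads at 4wk against 1662 and 1616 at 12wk, and leaving out either sample of either age ended it (adjusted p between 0.13 and 0.35 in the limma fits). Summed over 7 myoepithelial markers the level was 266 and 387 FPKM at 4wk and 473 and 628 FPKM at 12wk. Of the 6 tested, 0 were called in this step, and their median log2 fold change was 0.84 against 0 over all tested genes. The part of myoepithelial cells in the Krt5 difference was not tested.

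**Figure D3:**
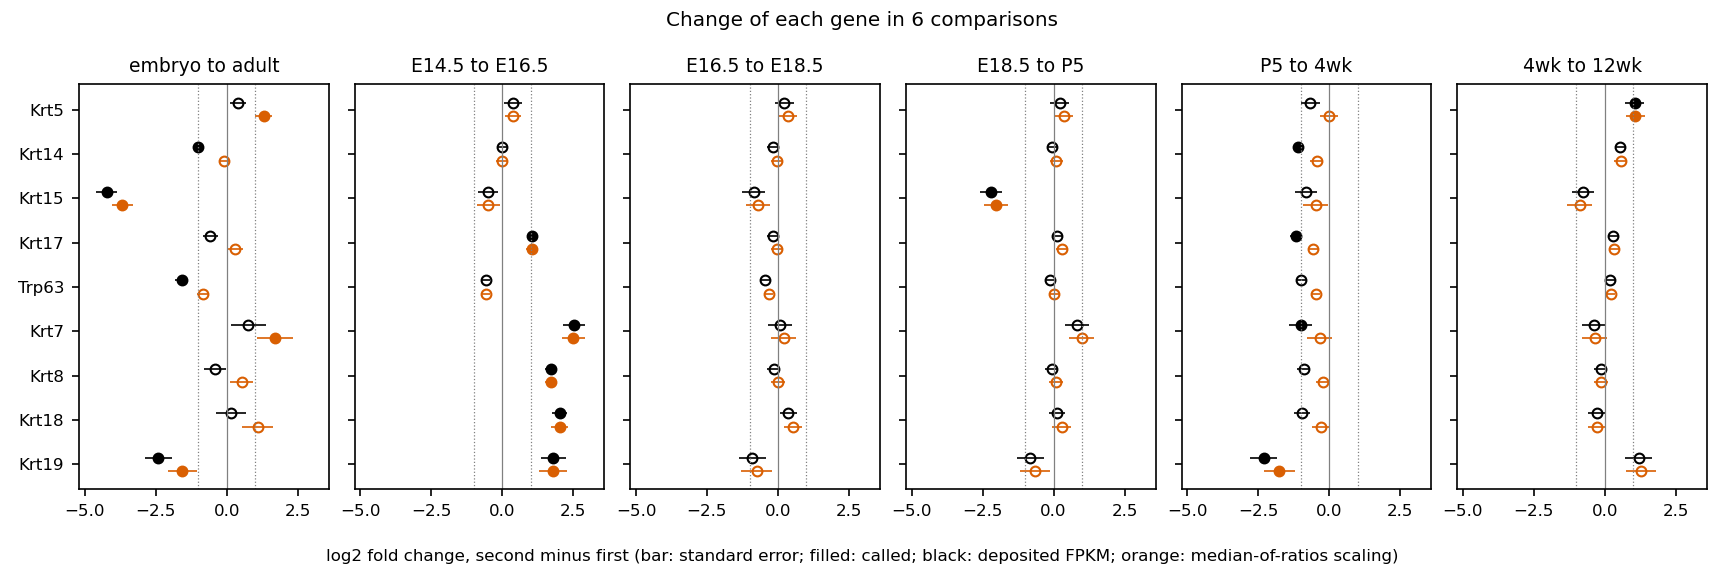
Log2 fold change (second minus first, bars are standard errors) of the 9 genes in 6 comparisons, from the deposited FPKM in black and after median-of-ratios scaling in orange, with filled points for called changes and dotted lines at 1 and -1. The 4 luminal keratins are called from E14.5 to E16.5 with both scalings, as are 4.17% and 3.65% of all genes as higher, whereas Krt14 and Trp63 are called from embryo to adult with the deposited FPKM and not after median-of-ratios scaling.

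The stage comparison set the 7 embryonic samples against the 4 adult samples and shares those samples with the steps above. Of the basal genes 3 of 5 fell and of the luminal keratins 1 of 4, and none rose. Over all tested genes 38% were called as lower and 5.58% as higher, so 4 lower among the 9 members is near that share. Krt15 was between 15.9 and 55.6 FPKM in the embryo (median 29.4) and between 0.245 and 2.50 in the adult, a log2 fold change of -4.23 (SE 0.37, limma adjusted p = 2.4e-07). Krt19 was between 11.7 and 85.7 FPKM (median 35.8) and between 1.502 and 9.41, a change of -2.41 (SE 0.48, adjusted p = 0.00042). Neither gene overlapped between the stages, which held for 60.3% of all tested genes, and both were called with either scaling. Trp63 was between 6.28 and 16.6 FPKM (median 10.54) against 2.41 to 3.19, a change of -1.59 (SE 0.23, limma adjusted p = 2.7e-05), and Krt14 between 49.4 and 68.9 FPKM (median 57.7) against 22.6 to 38.8, a change of -1.02 (SE 0.16, adjusted p = 4.4e-05). The median of all genes was -0.75, and relative to it Trp63 differed by -0.84 and Krt14 by -0.27. Scaled to the 10 general epithelial genes, Trp63 (-1.60, limma adjusted p = 0.0046), Krt15 (-4.24) and Krt19 (-2.40) were still called as lower. Krt14 (-1, limma adjusted p = 0.016) then fell short of the fold threshold. With that scaling 5618 of the 14650 tested genes were called as lower and 856 as higher, and the median of all genes was -0.76. With the deposited FPKM, Krt5 (0.40), Krt7 (0.77) and Krt18 (0.15) were not called. Without the first E14.5 sample, Krt15, Krt19, Trp63 (-1.55) and Krt14 (-1.06) were still called with the deposited FPKM.

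With median-of-ratios scaling, which brought that median to -0.08, the calls were 13.8% higher and 14.7% lower over all tested genes. Krt5 (1.30, limma adjusted p = 0.002) and Krt7 (1.71, adjusted p = 0.033) were then called as higher. Krt14 was at -0.09 (adjusted p = 0.65), Trp63 at -0.82 (limma adjusted p = 0.0037, inside the fold threshold), and Krt18 at 1.09 with an adjusted p of 0.1 in the limma fit. Krt8 (-0.41 deposited, 0.53 rescaled) and Krt17 (-0.57 and 0.30) changed sign between the scalings. Krt15 and Krt19 were thus called as lower with both scalings, and Krt5, the partner of Krt14, was called as lower with neither.

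Of 18 tested p63 target and basal adhesion genes, 9 fell and 2 rose from embryo to adult, and the median was -0.91 against -0.75 over all genes. After rescaling 4 fell and 3 rose. Pdpn (-3.78 deposited, -3 rescaled), the gene of the membrane glycoprotein podoplanin, Jag2 (-2.03 and -1.21), a Notch ligand gene, and Cdh3 (-1.79 and -1.06), encoding P-cadherin, were called as lower with both scalings, and Col17a1 (-1.62) with the deposited FPKM alone. Ngfr (1.25 and 2.16), a neurotrophin receptor gene also used as a basal marker, and Lamb3 (1.29 and 2.15) were called as higher with both. Trp73 (-1.30 and -1.04), a close relative of Trp63, was also lower with both, and Perp (1.39), a desmosome-associated target of p63, was higher after rescaling alone. Of 6 tested myoepithelial genes, 4 rose and none fell (6 after rescaling), with the smooth muscle myosin gene Myh11 at 3.55 and the calponin gene Cnn1 at 3.39. Of 12 luminal and duct genes, 3 rose and 1 fell, and after rescaling 6 rose and none fell. Aqp5 (2.49 and 3.38), the chloride channel gene Cftr (2.31 and 3.09) and the transcription factor gene Tfcp2l1 (1.24 and 2.17) rose with both scalings, and Prom1 (-1.17) fell with the deposited FPKM alone. Without the first E14.5 sample Aqp5 was at 1.76 and Tfcp2l1 (0.97) lost its call with the deposited FPKM. Of 10 desmosome and filament linker genes, 1 rose, the plakophilin gene Pkp1 (1.73), and 2 fell, Tchp (-1.16) and the envoplakin gene Evpl (-1.02). After rescaling neither fall was called, and Pkp1 (2.59), Pkp2 (1.42) and the desmoplakin gene Dsp (1.31) were higher. None of the 10 general epithelial genes was called with the deposited FPKM, and 3 were higher after rescaling, Spint1 (1.86), Rab25 (1.74) and Spint2 (1.52).

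**Figure D4:**
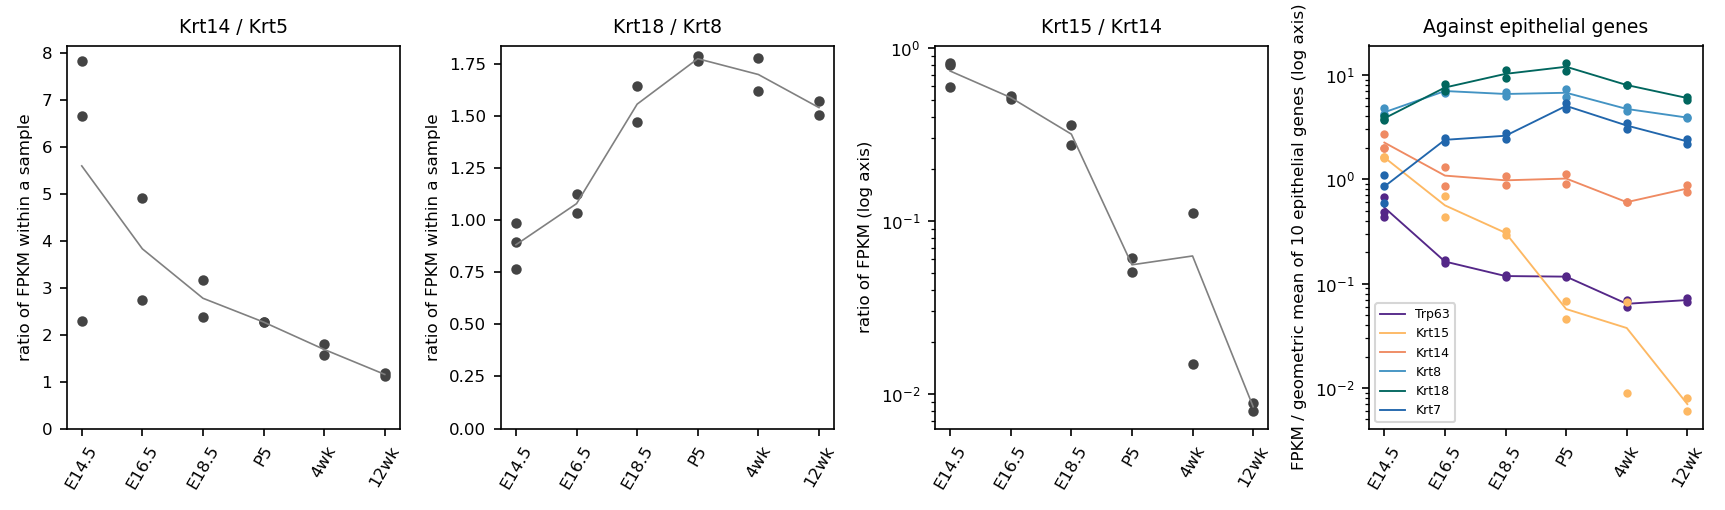
First 3 panels, ratio of FPKM within a sample for Krt14 to Krt5, Krt18 to Krt8 and Krt15 to Krt14 (log axis) against time point; last panel, FPKM of 6 genes over the geometric mean of 10 epithelial genes (log axis). Points are samples and lines join time point means. Krt14 to Krt5 goes from a mean of 5.59 to 1.15 and Krt18 to Krt8 from 0.881 to 1.54 between E14.5 and 12wk.

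The courses of the members were compared by the root mean square difference of Z-scores over the 6 time point means, in which the size of a change plays no part. The most alike were Krt7 and Krt18 (0.269), followed by Krt15 and Trp63 (0.34), Krt17 and Krt8 (0.354) and the filament pair Krt8 and Krt18 (0.386). The filament pair Krt5 and Krt14 stood at 1.36, and Krt5 and Krt15 were the least alike (1.64). The neighbouring genes Krt15 and Krt19 stood at 0.642. Among 9002 other genes with a mean of at least 5 FPKM, the courses most like Trp63 were those of Efnb2 (0.033), Nup98, Hsf2, Peo1 and Rtf1 (0.041). Efnb2, an ephrin ligand gene, was at 40.4 FPKM at E14.5, 13.7 at P5 and 5.99 at 12wk. For Krt19 they were Elovl1 (0.052), Fam110a, Ptpmt1, Timm10b and Tecpr1. For Krt8 they were St14 (0.133), Trappc6a, Ndufb10, Marveld2 and Cars2. St14 encodes the epithelial protease matriptase and was itself among the 10 general epithelial genes, at 17.7 FPKM at E14.5 and 37.5 at E16.5.

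Beyond the members, the files listed 44 further keratin genes, of which 9 reached 1 FPKM in a sample. The highest was Krt23, a type I keratin, with means of 29.5 FPKM (E14.5), 77.0 (E16.5), 100.5 (E18.5), then 84.8 (P5), 94.7 (4wk) and 39.2 (12wk). Its mean thus exceeded that of Krt14 from E16.5 on, and it rose with the luminal keratins from E14.5 to E16.5 (log2 fold change 1.43, limma adjusted p = 0.0044, and 1.08 without the first E14.5 sample) and fell from 4wk to 12wk (-1.25, adjusted p = 0.017). Krt10 and Krt1, keratins of suprabasal skin, had means of 14.0 and 7.60 FPKM at E18.5 and no more than 6.19 and 2.10 at any other time point. Krt80 was at 5.41 FPKM (E14.5) and 11.8 (12wk), and Krt4, a keratin of the mouth and oesophagus lining, at 4.93 FPKM (E14.5) and 0.0355 (12wk).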

How the data were processed

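RNA-seq of 13 submandibular gland samples from 6 time points was used, with groups and replicate numbers from the sample labels. Single-end reads of 50 bp were aligned by the authors to mm9 (TopHat2 2.0.13 with Bowtie2 2.2.6) and assigned to UCSC genes by featureCounts, multiply mapped reads excluded, and FPKM per gene were deposited. The authors describe the deposited FPKM as normalized between samples with DESeq2 1.10.1, but their median-of-ratios factors were far from 1, and they were taken as scaled to each sample's total. No counts were used and no count model was fitted. Reads on genes and per member were recomputed from the steps between low FPKM values, and 37.3% to 47.4% of low genes were within 0.02 of whole reads, since the annotated length differs from the authors' for the rest. Depth was 5817293 to 48314162 reads, and intervals cover counting error only.

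The test was limma 3.58.1 in R 4.3.3 (lmFit, contrasts.fit, eBayes with a mean-variance trend), on log2(FPKM + 1) of the genes that reached 1 FPKM anywhere, with all 13 samples in every fit, and p-values were adjusted over all 14650 genes. One fit used the stages embryo, neonatal and adult, and another used the 6 time points. Calls needed a log2 fold change of at least 1 and an adjusted p below 0.1, the study's thresholds, and a fold on this scale understates the change of low genes. The fits were tested on simulated data. Embryonic and adult time points count as replicates in the stage fit, as in the study's methods. Alternatives tried were log2(FPKM + 0.1), 2 other filters, median-of-ratios scaling, scaling to epithelial genes, an adjusted p below 0.05, no trend, a replicate block, only the groups compared, and each sample left out. List counts without the first E14.5 sample, also with the scaling to epithelial genes, and sums with Krt23 were added after seeing the data.

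The members and gene lists were chosen with earlier results of these data known. All 9 members are named in each comparison, up to 4 called genes of a list by size of change, the 5 most alike genes and the 5 highest other keratins. The genes most like Krt14 are not reported here. Trp73 and Perp were named after their values were seen. Positions are from GENCODE on mm9, and promoters from RefSeq on GRCm38.p6. Python 3.11.15 with numpy 2.4.6, pandas 2.3.3, scipy 1.17.1 and matplotlib 3.10.9 was used.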

Additional observations from a re-analysis of the deposited data

Results flagged for a closer look

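Among 20 groups of 4 to 10 samples examined (each member in the embryo and in the adult, and the basal to luminal ratio), 1 held a sample far from the others, and chance gives about 1 in 20. Krt15 was at 2.50 FPKM in the first 4wk sample, from 25 reads, against 0.245 to 0.365 FPKM in the other 3 adult samples, a gap of 0.947 of the whole range. The same sample had the lowest Krt19 of the series, 1.502 FPKM, and the lowest depth, 5817293 reads. Without it Krt15 from P5 to 4wk was at -1.51 (limma adjusted p = 0.0044), which was then past the threshold, against -0.83 with it, and Krt19 was at -1.46 (adjusted p = 0.012) against -2.31.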

How the results depend on the processing

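Of 1188 recomputed fold changes of the members, 1108 kept their direction and their side of the threshold, 39 fell below it, 16 passed it and 25 changed sign, none of the 25 from a called value. Of the 15 calls, the alternatives with all samples ended 20 of 135 and leaving out a sample ended 19 of 195. The number of members called from P5 to 4wk was 4 and became 1 with median-of-ratios scaling and 1 with scaling to epithelial genes. It was 6 on log2(FPKM + 0.1), 3 without a filter and 3 at an adjusted p below 0.05. The number called from 4wk to 12wk was 1 and became 0 without a filter, 0 with scaling to epithelial genes and 0 at an adjusted p below 0.05. The cause was not tested. With 1 sample left out the counts ranged from 3 to 4 for embryo to adult, 4 to 5 for E14.5 to E16.5, 0 to 0 for E16.5 to E18.5, 1 to 1 for E18.5 to P5, 2 to 5 for P5 to 4wk (2 without the second P5 sample) and 0 to 2 for 4wk to 12wk. In the embryo to adult comparison Krt14 lost its call, by fold alone, without E14.5 replicate 2, E14.5 replicate 3, E16.5 replicate 1 or either 4wk sample (-1 to -0.91).

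Changes of sign were at small values. With median-of-ratios scaling they were Krt17 (0.30) and Krt8 (0.53) from embryo to adult and Krt14 (0.10), Trp63 (0.03) and Krt8 (0.09) from E18.5 to P5. With scaling to epithelial genes they were Krt5 from E14.5 to E16.5 (-0.62) and Krt14 (0.05) and Krt8 (0.04) from E18.5 to P5. With 1 sample left out the values that crossed 0 ranged from -0.17 to 0.35 for Krt18 in embryo to adult and from -0.17 to 0.07 for Krt14 in E14.5 to E16.5. In E16.5 to E18.5 they ranged from -0.11 to 0.55 for Krt5, -0.10 to 0.23 for Krt7 and -0.33 to 0.02 for Krt8, and in E18.5 to P5 from -0.23 to 0.12 for Krt14, -0.21 to 0.07 for Krt8, -0.03 to 0.30 for Krt17 and -0.03 to 0.27 for Krt18.

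The log2 ratio of basal to luminal keratins was -1.59 (E14.5), -3.42 (E16.5) and -3.65 (E18.5) with Krt5 and Krt14 against Krt8 and Krt18, and with the mean of log2 values -2.81 (E16.5), -2.91 (E18.5), -3.40 (P5), then -3.05 (4wk) and -2.86 (12wk). With 1 replicate left out it ranged from -1.23 to -0.94 (E14.5), -3.15 to -2.88 (E16.5), -3.42 to -3.30 (E18.5), -3.72 to -3.64 (P5), -3.83 to -3.66 (4wk) and -2.91 to -2.73 (12wk).

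Deviations from time point means of samples with equal replicate numbers had a mean r of -0.016 over 30 pairs, between -0.352 and 0.273. The mean r was 0.012 over 40 pairs with unequal numbers. Deviations within a 2-sample group mirror each other, so the unequal pairs are no independent reference. These values gave no sign that the numbers pair the samples. With a replicate block the number of members called was 3 for embryo to adult, where Krt14 was at -0.98, and 5, 0, 1, 4 and 1 for the 5 steps. From 4wk to 12wk the block replaced Krt5 (limma adjusted p = 0.1) by Krt19 (adjusted p = 0.095). Krt18 from embryo to adult (-0.02) and Krt14 from E14.5 to E16.5 (0.06) changed sign with it. Depth limits Krt15 in the adult most, with 5 to 25 reads a sample, and a 2-sample group limits every step.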
